A study of Homo sapiens with 6 samples.

Results

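The genes described here are 10 regulators of apoptosis from the BCL2 family, taken by gene name from the 35474 genes of the count table. They are the anti-apoptotic genes BCL2, BCL2L1 and MCL1, the effectors BAX and BAK1, and the BH3-only genes BID, BAD, BBC3, PMAIP1 and BCL2L11. All 10 were listed and all 10 passed edgeR's filter on low counts, which left 20776 genes for testing. Their levels were compared between 3 A549 cultures transfected with a small interfering RNA against BAP18 (siBAP18) and 3 transfected with a non-specific control RNA (siCtrl), each harvested 48 h after transfection. A549 is an established line from a human lung adenocarcinoma. Both groups were transfected, with RNAs that differ in sequence as well as in target. Effects of the siRNA apart from the loss of BAP18 were not tested. The study used several siRNAs against BAP18, and which of them these cultures received is not given in the sources used here.

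BCL2 family proteins decide whether the outer membrane of the mitochondrion is opened during intrinsic apoptosis. BAX and BAK1 form the pores through which cytochrome c leaves the mitochondrion, and BCL2, BCL-XL (from BCL2L1) and MCL-1 hold them in check. BH3-only proteins respond to stress by binding the anti-apoptotic proteins, and some of them also activate BAX and BAK1 directly. The proteins of the family are controlled by transcription, splicing, phosphorylation and degradation, of which only the abundance of the transcripts was measured here.

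The feature that the family shares is the BH3 core, a short stretch that in BH3-only proteins and effectors binds the groove of the anti-apoptotic proteins. The codons of this core were located in the coding sequences of GENCODE 29 (GRCh38), and they are shown for the members whose levels differed between the groups and for HRK, a further BH3-only gene described below. Each line holds 27 bases, 5′ to 3′ on the coding strand, and the capitals mark the codon of the conserved leucine and the codons of the small residue and the aspartate.
BBC3: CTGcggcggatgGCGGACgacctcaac
BCL2L11: TTGcggcgtattGGAGACgagtttaac
HRK: CTCaaggcgctaGGCGACgagctgcac
BAX: CTCaagcgcatcGGGGACgaactggac
BCL2L1: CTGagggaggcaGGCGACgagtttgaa

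These stretches lie at chr19:47226582-47226608 (minus strand, exon 3) for BBC3, chr2:111150103-111150129 (plus strand, exon 3) for BCL2L11 and chr12:116881173-116881199 (minus strand, exon 1) for HRK. They lie at chr19:48955787-48955813 (plus strand, exon 3) for BAX and chr20:31721925-31721951 (minus strand, exon 2) for BCL2L1. The BBC3 and BCL2L11 stretches had 19 of 27 bases in common, as did those of BAX and HRK. Not every annotated form of a gene holds the core. It was present in 7 of 14 complete coding transcripts of BCL2L11, in 2 of 4 of BBC3 and in 4 of 6 of BAX, against 3 of 3 of BCL2L1. The deposited values are per gene, so forms with and without the core, and the long and short forms of BCL2L1 and MCL1, were counted together.

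The knockdown was checked first. BAP18, listed as C17orf49, was at 14.0, 16.1 and 15.1 CPM in siCtrl replicates 1, 2 and 3 and at 2.21, 2.35 and 2.66 CPM in siBAP18 replicates 1, 2 and 3. Its log2 fold change, siBAP18 over siCtrl, was −2.65 (standard error 0.111, edgeR quasi-likelihood adjusted p = 7.31e-16). CPM here are counts relative to the library total, scaled by TMM, edgeR's trimmed mean of M-values. The libraries held 42094524 to 56548620 counts. Of the epithelial markers KRT8, KRT18, KRT19, EPCAM and CDH1, the summed level was 3830 to 4057 RPKM (counts relative to gene length and library total) in siCtrl and 2972 to 3438 in siBAP18. Nearly all of it came from KRT8 and KRT18, at means of 1948 and 1859 RPKM in siCtrl. Of the others, CDH1 and EPCAM fell, with log2 fold changes of −1.32 and −0.41 (edgeR quasi-likelihood adjusted p = 3.80e-14 and 3.78e-05), and KRT19 had a value of 0.15 that did not pass. Of 10 leukocyte, endothelial and fibroblast markers, 7 were listed, with a summed level of 30.4 to 32.5 RPKM in siCtrl and 55.3 to 70.7 in siBAP18. Nearly all of it came from CD68, a lysosomal protein gene, and the other 6 together reached 1.02 to 1.68 RPKM over all libraries. Mitochondrial transcripts took 6.87% to 7.43% of the counts in siCtrl and 5.28% to 6.14% in siBAP18. The part of these differences in the results below was not tested. In bulk RNA, fewer cells with a transcript and less of it per cell cannot be told apart.

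Of the 10 genes, BBC3, BAX and BCL2L1 rose and BCL2L11 fell in siBAP18 cells at an adjusted p under 0.05, and 6 did not pass. Across all genes tested, 24.5% were higher and 25.1% lower by this rule, 49.6% in all, so 4 of 10 is near the background share. Only BBC3 also passed an absolute log2 fold change over 1, the fold used in the study. That joint rule was met by 8.46% of all genes tested, 4.72% higher and 3.74% lower. No member passed it in the lower direction, with an unadjusted p under 0.05 and the same fold giving 0 as well, and DESeq2 giving 0. The 3 siBAP18 libraries lay wholly above the 3 siCtrl libraries for BBC3, BAX and BCL2L1 and wholly below them for BCL2L11 and BID. Such a separation was seen for 56.6% of the genes tested, for 27.6% upward and 29% downward. The median log2 fold change of the 10 genes was 0.20, beside 0.001 over all genes tested.

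**Figure D1:**
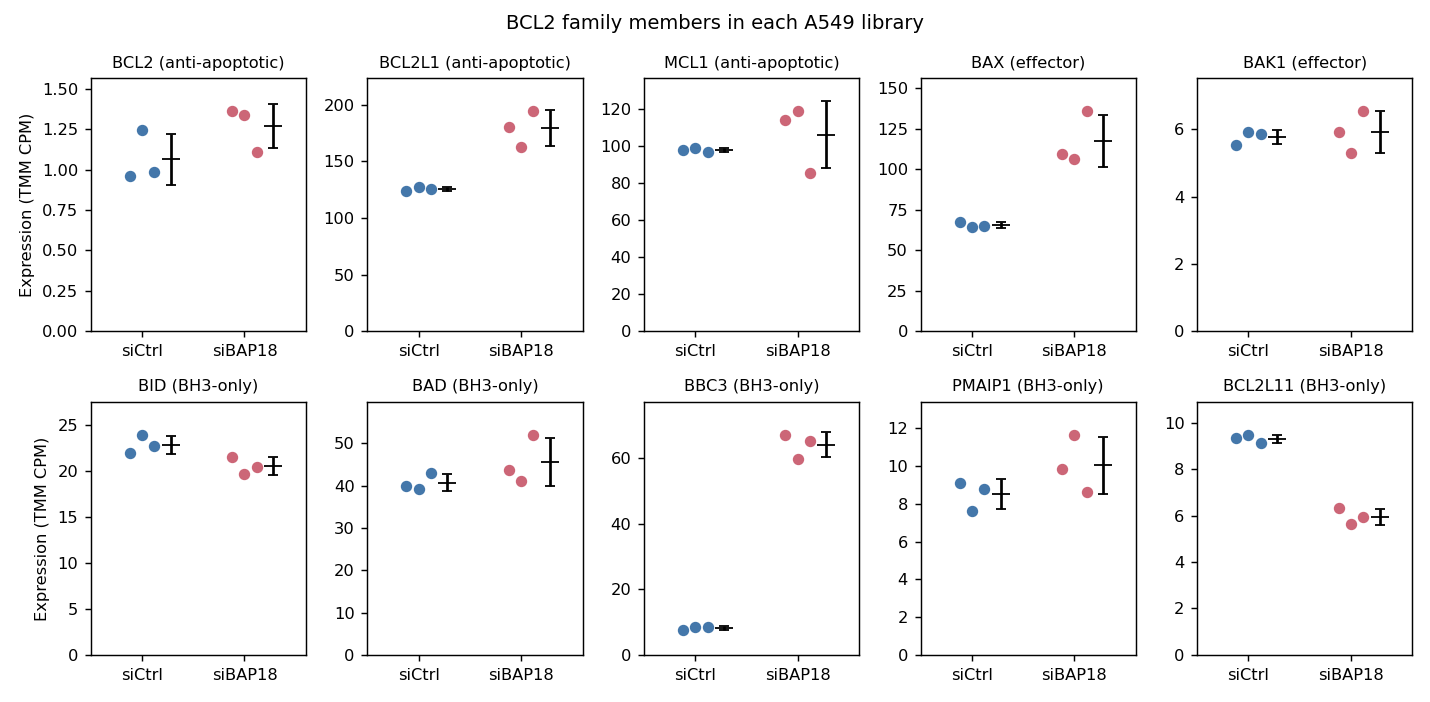
Expression of each BCL2 family member in TMM-scaled CPM (vertical axes start at 0) in the 3 siCtrl libraries (blue) and the 3 siBAP18 libraries (red), with the mean and SD in black. BBC3 lay between 7.60 and 8.62 CPM in siCtrl and between 59.8 and 67.0 CPM in siBAP18, while BCL2, MCL1, BAK1, BAD and PMAIP1 overlapped between the groups.

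BBC3 encodes PUMA, a BH3-only protein that binds all of the main anti-apoptotic family members. It was at 7.60, 8.62 and 8.58 CPM in siCtrl replicates 1, 2 and 3 and at 67.0, 59.8 and 65.3 CPM in siBAP18 replicates 1, 2 and 3. All 3 siBAP18 libraries were far above all 3 siCtrl libraries, and the replicates of each group were close to each other. The log2 fold change was 2.96 (standard error 0.081, 95% interval 2.79 to 3.12, edgeR quasi-likelihood adjusted p = 1.08e-19), a 7.76-fold rise. Ranked from the largest rise, BBC3 stood 119th of the 20776 genes tested. The gene lies on chromosome 19 from 47220822 to 47232766 on the minus strand. An annotated microRNA gene on the opposite strand, MIR3190, shares 80 exonic bases with it. MIR3190 was counted at 6, 10 and 1 reads in siCtrl and at 47, 41 and 28 reads in siBAP18, against at least 401 and 2649 reads for BBC3. The library protocol in the labels marks strand, but whether the counting used it is not given in the sources used here, so reads of an overlapping pair cannot be assigned to one gene.

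HRK, another BH3-only gene, belongs to the rest of the family and is given here beside BBC3 because both were called higher. It is known chiefly from neurons, where it is induced when survival factors are withdrawn. Its counts were 8, 12 and 8 in siCtrl and 179, 247 and 139 in siBAP18, so that every siBAP18 library was above every siCtrl library. The mean of its siCtrl libraries was 0.193 ± 0.0571 CPM and that of its siBAP18 libraries 3.65 ± 0.507 CPM (SD, n = 3 each). The log2 fold change was 4.24 (95% interval 3.73 to 4.75, edgeR quasi-likelihood adjusted p = 4.40e-13). Per length, HRK still stood at 0.534 RPKM in siBAP18 cells, below BCL2L11 at 0.894 RPKM. The siCtrl value rests on few reads, and with limma on log2(RPKM + 1) without a filter the difference was 0.58.

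BCL2L11 encodes BIM, a BH3-only protein that activates BAX and BAK1 and is induced by FOXO transcription factors when growth signals are lost. It was at 9.34, 9.46 and 9.11 CPM in siCtrl and at 6.30, 5.62 and 5.92 CPM in siBAP18. The siCtrl libraries were all above the siBAP18 libraries. BCL2L11 fell by 0.65 on the log2 scale (standard error 0.0998, 95% interval −0.85 to −0.44, edgeR quasi-likelihood adjusted p = 6.48e-06). With limma on log2(RPKM + 1), a scale that compresses low levels, the difference was −0.34 and still passed. BBC3 and BCL2L11 thus moved in opposite directions, and the ratio of their RPKM values went from 1.86 ± 0.141 in siCtrl to 22.6 ± 0.476 in siBAP18 (SD, n = 3 each).

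The other BH3-only members did not pass. PMAIP1 encodes NOXA, a partner of MCL-1. It was at 9.12, 7.61 and 8.79 CPM in siCtrl and at 9.85, 11.6 and 8.61 CPM in siBAP18, and the groups overlapped because siBAP18 replicate 3 lay among the siCtrl libraries. Its log2 fold change was 0.24 (95% interval 0.02 to 0.47, edgeR quasi-likelihood adjusted p = 0.0659). Without siBAP18 replicate 3 it was 0.34 and passed (adjusted p = 0.00515 from the same edgeR test). BAD, which phosphorylation by survival kinases keeps bound to 14-3-3 proteins, was at 40.0, 39.2 and 43.1 CPM in siCtrl and at 43.7, 41.1 and 52.0 CPM in siBAP18. Only siBAP18 replicate 2 fell within the siCtrl range. The log2 fold change of BAD was 0.16 (95% interval −0.005 to 0.32, edgeR quasi-likelihood adjusted p = 0.102), and without siBAP18 replicate 2 it was 0.23 and passed (adjusted p = 0.00971 from the same edgeR test). BAD shares 404 exonic bases with GPR137 on the opposite strand, whose log2 fold change was 0.18.

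BID links death receptors to the mitochondrion after cleavage by caspase-8. It was at 22.0, 23.9 and 22.7 CPM in siCtrl and at 21.6, 19.7 and 20.5 CPM in siBAP18. The groups did not overlap, but the distance between the nearest libraries was small. The log2 fold change was −0.15 (95% interval −0.31 to 0.004, edgeR quasi-likelihood adjusted p = 0.1002).

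BAX is the effector that moves from the cytosol to the mitochondrion. It was at 67.6, 64.1 and 64.8 CPM in siCtrl and at 109.5, 106.5 and 135.7 CPM in siBAP18. Every siBAP18 library was above every siCtrl library, with replicate 3 the highest. BAX rose by 0.84 on the log2 scale (standard error 0.0792, 95% interval 0.67 to 1.00, edgeR quasi-likelihood adjusted p = 2.75e-09), a 1.79-fold rise that did not reach the fold threshold. No other gene of the table shared exonic bases with BAX, which lies on chromosome 19 from 48954815 to 48961798 on the plus strand. BAK1, the effector that resides on the mitochondrion, was at 5.53, 5.93 and 5.86 CPM in siCtrl and at 5.94, 5.31 and 6.54 CPM in siBAP18. The groups overlapped. Its log2 fold change was 0.03 (95% interval −0.20 to 0.27, edgeR quasi-likelihood adjusted p = 0.835). BAK1 shares 91 exonic bases with GGNBP1 on the opposite strand, which was counted at 12 to 27 reads per library.

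Of the anti-apoptotic genes, BCL2L1 was at 124.1, 127.2 and 125.8 CPM in siCtrl and at 180.7, 162.4 and 194.1 CPM in siBAP18. The siCtrl libraries nearly coincided, and all siBAP18 libraries were above them. BCL2L1 rose by 0.51 on the log2 scale (standard error 0.0702, 95% interval 0.37 to 0.65, edgeR quasi-likelihood adjusted p = 1.23e-06), a 1.42-fold rise. The antisense gene ABALON shares 1424 exonic bases with BCL2L1, out of a listed BCL2L1 length of 3314 bases. ABALON was counted at 4780 to 5387 reads in siCtrl and 6571 to 7962 reads in siBAP18, and its log2 fold change was 0.52 (edgeR quasi-likelihood adjusted p = 1.07e-06). The ratio of ABALON to BCL2L1 reads was 0.819 ± 0.0127 in siCtrl and 0.825 ± 0.0132 in siBAP18 (SD, n = 3 each). Reads of these genes cannot be told apart where they overlap unless the counting used strand.

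MCL1 encodes a short-lived protein whose transcript also turns over fast. It was at 98.0, 99 and 97.0 CPM in siCtrl and at 114.3, 118.7 and 85.7 CPM in siBAP18. Replicates 1 and 2 of siBAP18 were above all siCtrl libraries and replicate 3 was below them all. The log2 fold change was 0.12 (95% interval −0.06 to 0.30, edgeR quasi-likelihood adjusted p = 0.272), and without siBAP18 replicate 3 it was 0.25 and passed (adjusted p = 2.09e-04 from the same edgeR test). MCL1 shares 2 exonic bases with ADAMTSL4-AS1 on the same strand, which was counted at 5 to 18 reads per library. BCL2 itself was barely expressed, with 51, 58 and 46 reads in siCtrl and 74, 78 and 45 in siBAP18. At 1.06 ± 0.160 and 1.27 ± 0.138 CPM (SD, n = 3 each), the groups overlapped. The interval of its log2 fold change, −0.20 to 0.73, was the widest among the members, and the adjusted p was 0.346 from edgeR's quasi-likelihood fit.

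Replicate spread was larger after knockdown. The coefficient of variation of CPM was larger in siBAP18 than in siCtrl for 8 of the 10 genes, with medians of 10.6% and 4.06%. Over the 14222 genes with an average log2 CPM over 1, the medians were 8.15% in siBAP18 and 4.74% in siCtrl. Replicate 3 of siBAP18 was the highest siBAP18 library for BCL2L1, BAX, BAK1 and BAD and the lowest for BCL2, MCL1 and PMAIP1. It was the highest or the lowest of the siBAP18 libraries for 76.9% of all genes tested. Even among 3 libraries that do not differ, each is the highest or the lowest for most genes. With each library left out in turn, the log2 fold change stayed between 2.89 and 3.00 for BBC3, between 0.72 and 0.90 for BAX, between 0.45 and 0.58 for BCL2L1 and between −0.69 and −0.60 for BCL2L11. All 4 passed the adjusted threshold in each of these fits.

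**Figure D2:**
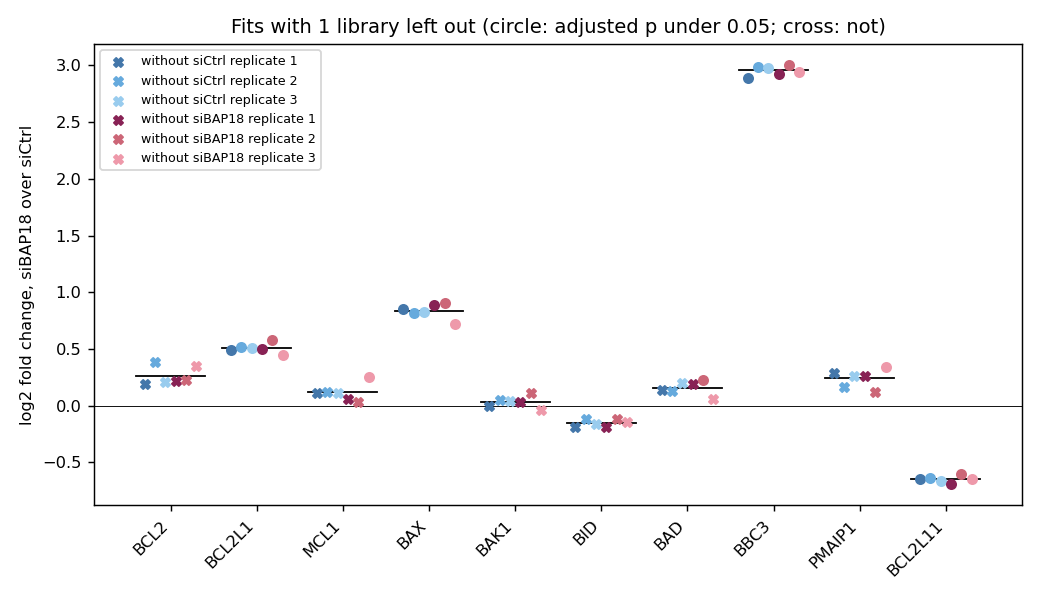
log2 fold change (siBAP18 over siCtrl) of each member in fits that left out 1 library, with the value from all 6 libraries as a black line; circles passed an adjusted p under 0.05 and crosses did not. BBC3, BAX, BCL2L1 and BCL2L11 passed in every fit, whereas MCL1 and PMAIP1 passed only without siBAP18 replicate 3 and BAD only without siBAP18 replicate 2.

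Levels of different genes were compared per length, in RPKM. The level of BCL2L1 may hold reads of ABALON, since the use of strand in counting is not given. In siCtrl cells the order from high to low was BCL2L1 (37.9 ± 0.848 RPKM), BAX (25.3 ± 0.563), BAD (23.8 ± 1.07), MCL1 (22.4 ± 0.452), BID (5.13 ± 0.277), PMAIP1 (3.80 ± 0.316), BAK1 (2.61 ± 0.119), BBC3 (2.59 ± 0.199), BCL2L11 (1.40 ± 0.0386) and BCL2 (0.0903 ± 0.0146), each with SD over 3 libraries. The ranges of BAX and BAD overlapped, as did those of BAK1 and BBC3, and all other neighbours in this order were separate. In siBAP18 cells BBC3 stood in position 5 in place of 8, at 20.2 ± 0.961 RPKM (SD, n = 3), behind BCL2L1, BAX, BAD and MCL1. There the range of BBC3 overlapped that of MCL1 (24.4 ± 4.88 RPKM, SD, n = 3), whose range also overlapped that of BAD, and BID overlapped PMAIP1. BCL2 stayed the lowest, at 0.108 ± 0.0150 RPKM (SD, n = 3). Annotated lengths include long untranslated exons in some genes, such as 11765 bases for BCL2 and 6658 for BCL2L11, and a transcript shorter than the listed length would be understated.

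**Figure D3:**
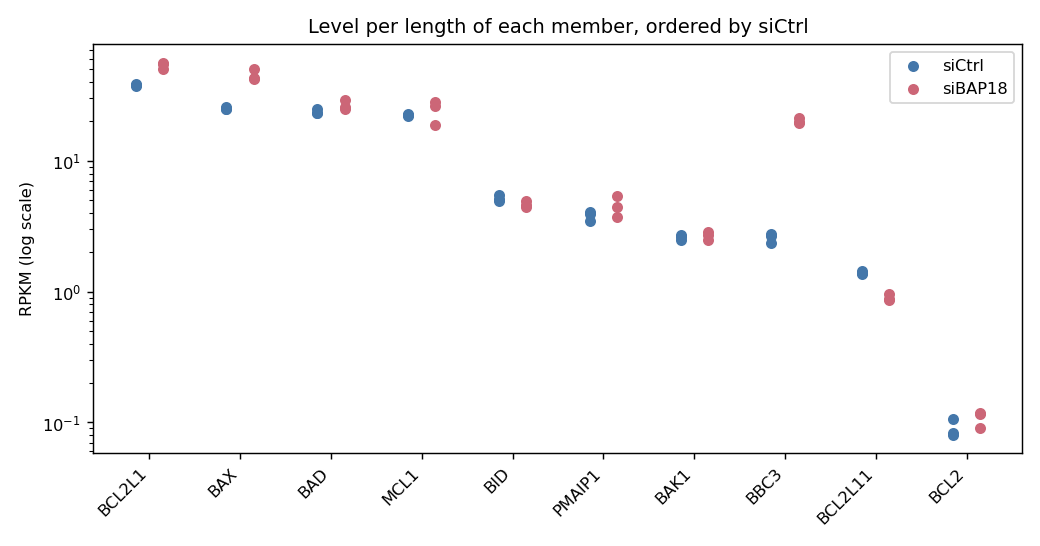
RPKM of each member in the 3 siCtrl (blue) and 3 siBAP18 (red) libraries on a log axis, ordered by the siCtrl mean. BBC3 moved from 2.59 RPKM, beside BAK1, to 20.2 RPKM, beside MCL1 and BAD, while BCL2 was the lowest member in both groups.

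Summed over roles, anti-apoptotic transcripts were at 60.3 ± 1.27 RPKM in siCtrl and 78.5 ± 3.03 in siBAP18 (SD, n = 3 each). The effectors were at 27.9 ± 0.463 and 47.9 ± 4.73 RPKM, and the BH3-only transcripts at 36.7 ± 1.16 and 56.8 ± 1.55. Most of the BH3-only difference lay in BBC3, since the other 4 summed to 34.1 ± 1.07 RPKM in siCtrl and 36.7 ± 1.42 in siBAP18. The effector difference lay in BAX, with means of 25.3 RPKM in siCtrl and 45.2 in siBAP18, against 2.61 and 2.68 for BAK1. Most of the anti-apoptotic difference lay in BCL2L1, with means of 37.9 and 54.0 RPKM, against 22.4 and 24.4 for MCL1. The share of BBC3 in the sum of all 10 members went from 2.08% ± 0.142 to 11% ± 0.489 (SD, n = 3 each). The ratio of effector and BH3-only transcripts to anti-apoptotic transcripts was 1.08, 1.04 and 1.10 in siCtrl and 1.26, 1.27 and 1.48 in siBAP18. These ratios did not overlap, and BAX over BCL2L1 also went from 0.668 ± 0.0272 to 0.837 ± 0.0596 (SD, n = 3 each). The sums are descriptions of transcripts and carry no test. Sums and ratios that include BCL2L1 may hold reads of ABALON.

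Windows from 250 bases before to 50 after the RefSeq gene start (GRCh38.p14) were read for all members but MCL1, and matches on both strands to 3 motifs are given. TGACTCA, the motif of AP-1, occurs in 4.95% of all 35116 windows, GTAAACA of FOXO in 3.42% and TGATGCAA of ATF4 with CHOP in 0.87%. The matches to these 3 in the members are shown with their surroundings, since AP-1 and FOXO are known regulators of the family, and the capitals mark the motif.
BBC3, AP-1: cactggaaggTGAGTCActctggtgaggcg
BCL2L11, FOXO: agttactccgGTAAACAcgccagggacggc

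The BBC3 match lies at chr19:47232761-47232790 (minus strand), with its first base at position −113 from the start. The BCL2L11 match lies at chr2:111120681-111120710 (plus strand, position −223 from the RefSeq start). The gene as counted starts earlier, at 111119378 on chromosome 2, so this match lies within its span and not before it. Each member but MCL1 had 1 to 5 windows, and whether matches were more frequent in these than in all windows was not tested. A match describes the letters of a window and shows no binding.

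Beyond the 10 members, a list of 16 other genes of the family or related to it was read, of which 13 were tested. At an adjusted p under 0.05, 4 were higher and 4 lower, beside 24.5% and 25.1% of all genes tested. The fold threshold was passed by 1 in each direction, beside 4.72% and 3.74%, and the median log2 fold change was 0.04. HRK is the one called higher. BCL2L15, a gene expressed mainly in the gut, is the one called lower, at 2.65 ± 0.741 CPM in siCtrl and 1.12 ± 0.251 in siBAP18 (SD, n = 3 each), with a log2 fold change of −1.23 (edgeR quasi-likelihood adjusted p = 4.38e-05). On log2(RPKM + 1) with limma and no filter it was −0.36, short of the fold threshold. Among the rest, named after their values were seen, the anti-apoptotic BCL2L2 rose by 0.34 (edgeR quasi-likelihood adjusted p = 7.10e-04). The effector-like BOK had a value of 0.32 (adjusted p = 0.0279 from the same edgeR test). BOK did not pass with DESeq2, with limma on log2(RPKM + 1) without a filter, or without siCtrl replicate 1 or 3 or siBAP18 replicate 3. BNIP1, a SNARE protein gene of the endoplasmic reticulum, rose by 0.51 (edgeR quasi-likelihood adjusted p = 7.19e-06). BNIP3 and BNIP3L, mitophagy receptors that hypoxia induces, fell by 0.39 and 0.59 on the log2 scale (edgeR quasi-likelihood adjusted p = 1.91e-05 and 1.67e-07). BCL2A1, an NF-κB target, was below the filter, with 0, 8 and 4 reads in siCtrl and 16, 10 and 8 in siBAP18. BCL2L14 was below it as well, with 15, 8 and 5 reads against 4, 2 and 8. BCL2L10 was not among the genes listed with counts under this name.

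**Figure D4:**
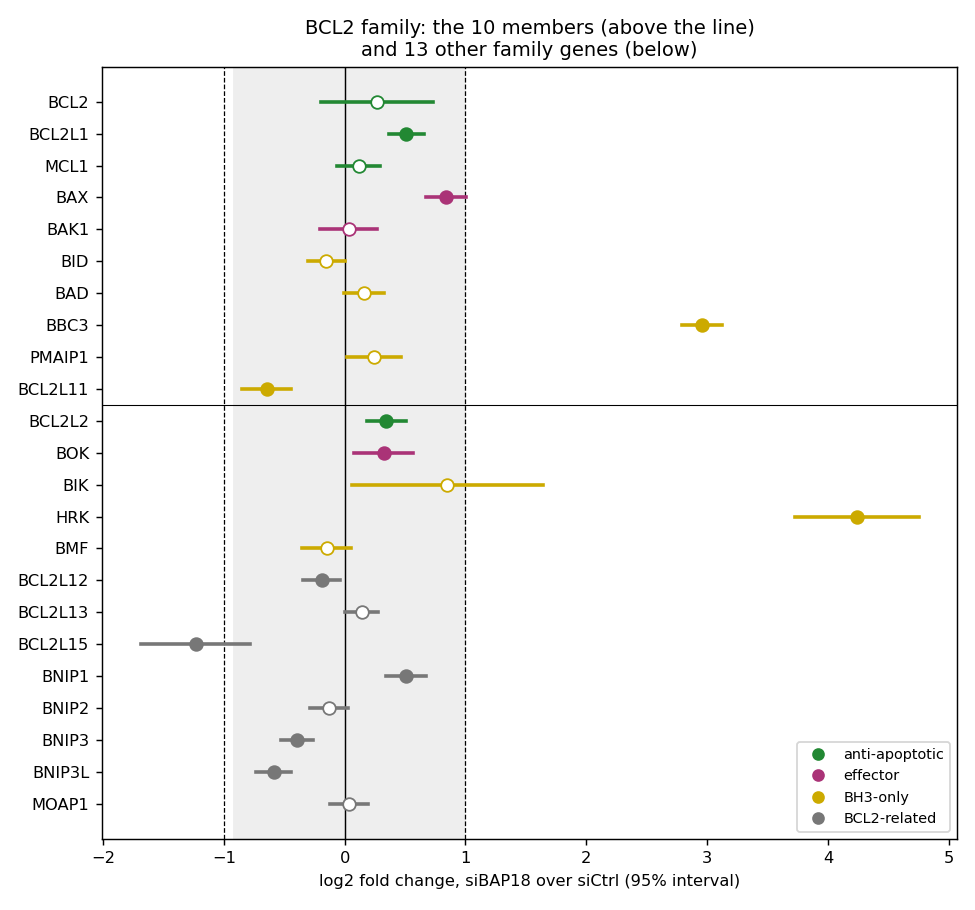
log2 fold change (siBAP18 over siCtrl) with its 95% interval for the 10 members and 13 other BCL2 family genes, coloured by role; filled points passed an adjusted p under 0.05, dashed lines mark a log2 fold change of 1 in either direction, and the grey band holds the values of all genes tested from the 5th to the 95th percentile, −0.92 to 0.99. BBC3 at 2.96 and HRK at 4.24 lie above the band, and BCL2L15 at −1.23 lies below it.

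Of 17 genes acting downstream at the mitochondrion, 2 were higher and 6 lower at an adjusted p under 0.05, beside 24.5% and 25.1% of all genes tested, with a median log2 fold change of −0.12. These 8 of 17 are near the background share of 49.6%. None passed the fold threshold, and at an unadjusted p under 0.05 with that fold the count was also 0, as it was with DESeq2. The genes named from this list were picked after their values were seen. APAF1, the scaffold of the apoptosome, and the caspase inhibitor XIAP had log2 fold changes of −0.62 and −0.48 (edgeR quasi-likelihood adjusted p = 5.16e-06 and 3.88e-05), so both fell. DIABLO and HTRA2, which are released from mitochondria and antagonise XIAP, rose by 0.28 and 0.40 (edgeR quasi-likelihood adjusted p = 0.00123 and 0.00128). VDAC1, a channel gene of the outer membrane, fell with a log2 fold change of −0.51 (edgeR quasi-likelihood adjusted p = 3.75e-07).

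Of 30 genes known to regulate BCL2 family members, 13 were higher and 5 lower at an adjusted p under 0.05, beside 24.5% and 25.1% of all genes tested. With the fold threshold 5 were higher and 1 lower, beside 4.72% and 3.74%. The median log2 fold change was 0.15. This list was chosen with earlier results of these data known, so its counts give no independent evidence of an excess over all genes. The called genes with the smallest adjusted p were ATF3, DDIT3, JUN and TRIB3, all of the cellular stress response. ATF3 rose from 7.07 ± 0.499 to 137.1 ± 9.23 CPM and DDIT3, which encodes CHOP, from 11.3 ± 0.795 to 172.9 ± 14.1 CPM (SD, n = 3 each). Their log2 fold changes were 4.27 and 3.94 (edgeR quasi-likelihood adjusted p = 2.22e-22 and 6.54e-22). JUN, a subunit of AP-1, had a log2 fold change of 3.39 and TRIB3, a pseudokinase induced by ATF4 and CHOP, one of 1.35. MDM2, which encodes a ubiquitin ligase, is the fifth gene called higher and rose by 1.09 (edgeR quasi-likelihood adjusted p = 2.15e-11). With limma on log2(RPKM + 1), the MDM2 difference was 0.89, short of the fold threshold. ATF4, the stress-response factor that induces DDIT3 and TRIB3, rose by 0.78 (edgeR quasi-likelihood adjusted p = 1.09e-09). FOXO3 had a value of 0.25 that passed with all libraries (edgeR quasi-likelihood adjusted p = 0.0174) but not with limma or without siCtrl replicate 1 or 2 or siBAP18 replicate 2.

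E2F1, the gene called lower, fell by 1.08 on the log2 scale, but without siBAP18 replicate 2 its value was −0.97 and no longer met the fold threshold. PIM1 and PIM3, kinases that phosphorylate BAD, rose by 0.92 and 0.97 (edgeR quasi-likelihood adjusted p = 3.59e-08 and 1.30e-09). The related PIM2, with 33 to 84 reads per library, had a value of −0.80 (edgeR quasi-likelihood adjusted p = 0.0139). PIM2 did not pass with DESeq2, with limma on log2(RPKM + 1) without a filter, or without siCtrl replicate 3 or siBAP18 replicate 1. Of the genes for MCL-1 turnover, the deubiquitinase gene USP9X fell with a log2 fold change of −0.59 (edgeR quasi-likelihood adjusted p = 3.09e-07), and HUWE1, FBXW7, BTRC and MARCH5 had values from 0.03 to 0.13 that did not pass. MDM2, ATF4, FOXO3, PIM1, PIM2, PIM3, USP9X and the other genes of MCL-1 turnover were named after their values were seen.

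**Figure D5:**
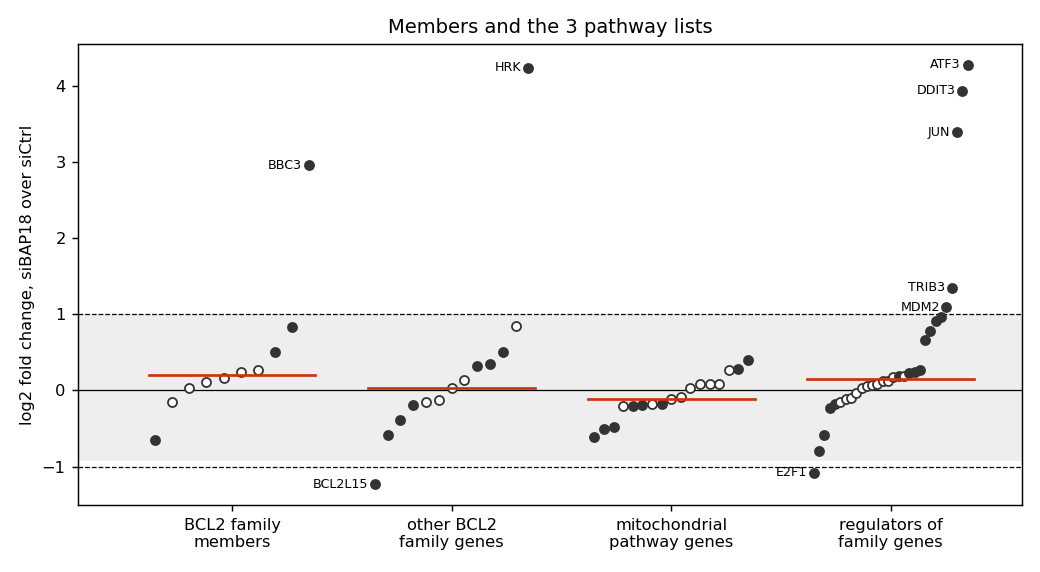
log2 fold change (siBAP18 over siCtrl) of every tested gene in the family and the 3 pathway lists, sorted within each list; filled points passed an adjusted p under 0.05, red lines are medians, dashed lines mark a log2 fold change of 1 in either direction and the grey band holds all genes tested from the 5th to the 95th percentile. The regulators hold 5 genes above the upper dashed line and 1 below the lower, and the mitochondrial pathway genes none.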

How the data were processed

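Poly(A) RNA from 6 A549 cultures, 3 siCtrl and 3 siBAP18, was sequenced as paired-end reads. The authors deposited whole-number counts per gene without normalization, and RPKM values that equalled the count scaled by listed length and column total in all 170144 values above 0 (relative tolerance 1e-06). Exon positions were on hg38, which the submitters' processing notes name beside a mouse build. The aligner, the counting program and its use of strand are not given in the sources used here. Counts, 42094524 to 56548620 per library, were filtered with filterByExpr, scaled by TMM and compared with the quasi-likelihood test of edgeR 4.0.16 in R 4.3.3, with Benjamini-Hochberg adjustment over all 20776 genes. Standard errors are the log2 fold change over the square root of F, and 95% intervals use its moderated degrees of freedom. The cultures are labelled as biological replicates. Within groups, counts of each pair differed beyond sampling noise (chi-square over its degrees of freedom 4.13 to 25.7). Alternatives used limma 3.58.1, DESeq2 1.42.0, other scalings and filters, a block for the replicate number and each library left out. The fit was tested on simulated data. Named genes were the 10 members, C17orf49, genes sharing exonic bases with a member, and up to 4 called genes per direction in each list with the smallest adjusted p. Other genes were named after their values were seen, as the text says beside them. Another promoter motif that was searched, and some genes of the lists, are not reported here. The members and lists were chosen with earlier results of these data known. Sequences came from GENCODE 29 and RefSeq, read with Biopython 1.88.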

Additional observations from a re-analysis of the deposited data

How the results depend on the processing

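The calls of BBC3, BAX, BCL2L1 and BCL2L11 at an adjusted p under 0.05 held in every alternative run. Over the 10 members, 162 of 168 refitted values kept their direction and side of that threshold. The exceptions were MCL1 (0.25) and PMAIP1 (0.34) without siBAP18 replicate 3, BAD without siBAP18 replicate 2 (0.23) and with a replicate block (0.16), which then passed, and BAK1, which turned to −0.0037 without siCtrl replicate 1 and −0.036 without siBAP18 replicate 3, within a range up to 0.11 with a library left out. BCL2 did not reach the minimum of 0.5 RPKM and has no value in the fits with that filter. Same-numbered libraries had residual correlations across genes of −0.0166, 0.0506 and 0.00379 for numbers 1, 2 and 3. Libraries of different numbers had values from −0.0374 to 0.0344. With so few libraries per group, these values cannot settle whether the replicate numbers mark a pairing. The replicate block gave 968 genes called higher and 773 lower, against 981 and 777, and moved no count of called genes in the lists.

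Among all genes, the number called higher was 605 with at least 10 counts in every library, 215 with limma on log2(RPKM + 1), 475 on log2(RPKM + 0.1), 212 on log2(RPKM + 1) without a filter and 5089 with no fold threshold. The number called lower was 133, 434, 133 and 5216 under the last 4 of these. In the order given, the settings tested 18747, 16484, 16484, 35474 and 20776 genes. With so few genes called under limma, a count of 0 in a short list says little. With each library left out, 957 to 1067 genes were called higher and 757 to 927 lower. With no fold threshold, 3 members were higher and 1 lower, 4 and 4 of the other family genes, 2 and 6 of the mitochondrial pathway genes and 13 and 5 of the regulators. Of the other family genes, 0 were called higher with at least 10 counts in every library or with limma in any form. There HRK was filtered out or its difference was under the fold threshold. With limma in any form, 0 were called lower. BCL2L15 was filtered out of the limma fits with the minimum of 0.5 RPKM, and without that filter its difference was under the fold threshold. With a library left out, 1 to 2 of the other family genes were called higher, 2 without siCtrl replicate 1 or siCtrl replicate 2. Of the regulators, 0 were called lower with limma on log2(RPKM + 1), with or without the filter, and 0 to 2 with a library left out (0 without siBAP18 replicate 2 and 2 without siBAP18 replicate 3). No scaling moved the median log2 fold change of all genes by over 0.1. Depth limits BCL2, BIK, HRK and BCL2L15, with few reads per library.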
